A study of Mus musculus with 7 samples.

Results

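Fos, Fosb, Jun, Junb, Jund, Egr1, Ier2, Atf3, Klf2 and Klf6 are 10 mouse genes for immediate-early transcription factors, followed here through 7 nascent RNA libraries of GFI1+ IAHC, the intra-aortic haematopoietic cluster cells from which the first blood stem cells arise. The 10 genes were taken by name from a table of raw read counts for 55487 genes. Of these, 10311 genes and 7 of the 10 factors reached 10 counts in 2 or more libraries of a single condition and could be tested. Fos, Fosb and Klf2 did not pass and are given as counts alone.

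CD31+cKIT+GFI1+ cells were sorted by FACS from the aorta-gonad-mesonephros region of E11.5 embryos carrying a Gfi1:tomato reporter (strain CD1/Gf1+ in the labels, which call the cells haematopoietic stem cells). All cells, the controls too, first spent a night in compE, a γ-secretase inhibitor that blocks cleavage of Notch receptors. After washing, sets of 300 to 400 cells were cultured for 4 h in methylcellulose with growth factors and ethynyl uridine, under Fc-JAG1 (a soluble Notch ligand, n = 2, embryo numbers 1 and 3), renewed compE (n = 2, embryo numbers 1 and 2) or DMSO (the washout, n = 3, embryo numbers 1, 2 and 3). RNA made in those 4 h carries the uridine label and was captured and pre-amplified before sequencing, so each value is a level of newly made RNA. A Fc-JAG1 library numbered 2 was excluded by the study because too few of its reads aligned uniquely. The labels number embryos while the methods describe pools of embryos, the labels and the methods differ in the units of the Fc-JAG1 and compE doses, and no library was made before or without the night in compE.

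Immediate-early genes are switched on by growth factors, stress and other stimuli without any need for new protein, largely through MAP kinases acting on SRF with its ELK partners and on CREB. FOS and JUN proteins pair to form AP-1, a dimer that binds DNA and sets off later genes, and JUNB and JUND are weaker or opposing members of the same family. EGR1 is a zinc finger factor, ATF3 a stress factor that often represses, IER2 a small nuclear protein, and KLF2 and KLF6 are Krüppel-like factors known from endothelium and blood. In the embryo, KLF2 answers to blood flow in endothelium, and FOSB is used together with GFI1, RUNX1 and PU.1 to turn adult endothelial cells into blood progenitors.

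Promoters of 8 of the 10 factors (300 bases each, 250 of them before the start site, RefSeq, GRCm38.p6) were read for letters that the known regulators bind, on both strands. Stretches upstream of Jun, Klf6, Fos and Atf3 are shown because they hold the CREB- and ATF-type letters discussed here. Capitals mark TGACATCA in Jun and Klf6, TGACG in Fos and its reverse in Atf3, and TATAAA in Fos.
Jun, chr4:95052223-95052302, minus strand: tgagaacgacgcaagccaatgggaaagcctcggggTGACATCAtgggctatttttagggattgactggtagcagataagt
Klf6, chr13:5861349-5861488, plus strand: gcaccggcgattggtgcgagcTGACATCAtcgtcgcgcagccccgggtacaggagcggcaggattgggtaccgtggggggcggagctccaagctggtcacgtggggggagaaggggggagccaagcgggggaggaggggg
Fos, chr12:85473810-85473889, plus strand: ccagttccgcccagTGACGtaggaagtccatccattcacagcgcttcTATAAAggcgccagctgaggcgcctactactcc
Atf3, chr1:191183334-191183413, minus strand: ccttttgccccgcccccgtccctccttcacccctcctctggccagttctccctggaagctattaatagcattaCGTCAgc

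TGACATCA began 45 bases before the start site in Jun and 119 bases before it in Klf6, and stood in 3.62% of all 32851 promoters of this length. In Fos, TATAAA began 33 bases and TGACG 66 bases before the start. TATAAA was in 2 of the 8 promoters (Fos and Junb, in Junb at the start site itself) against 13.6% of all, and TGACG in 5 of the 8 (Fos, Fosb, Junb, Atf3 and Klf2) against 20.8% of all. GCGGGGGCG, letters bound by EGR1, was in the promoters of Fosb and Klf2 and in 2.91% of all. The CArG box of SRF (1.63% of all), the full CRE TGACGTCA (1.79%) and the AP-1 site TGAGTCA with its reverse TGACTCA (5.2%) were in none of the 8 windows, and Jund held none of the motifs searched. TGACATCA, GCGGGGGCG and TGACG were added after the sequences had been seen, TGACG lies within TGACGTCA, and a match is a description of letters only. For Jund and Atf3 the RefSeq start lies away from the outermost start in GENCODE. The share of G and C was 46.7% in the Jund window and 58.7% to 69.3% in the others, against a median of 52.7% over all promoters. The shares of promoters with each motif were not adjusted for this.

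The 7 libraries held different sets of the 10 factors, within conditions as well as between them. At least 10 counts were found for 7 and 5 factors in the Fc-JAG1 libraries (embryo numbers 1 and 3), for 4 and 8 in the compE libraries (1 and 2), and for 4, 9 and 4 in the washout libraries (1, 2 and 3). Most values were either far above 10 counts or at 0 or 1. The same libraries differed in how many of the 10311 tested genes reached 10 counts, which was 90.5% and 69.9% under Fc-JAG1, 71.1% and 92.4% under compE, and 56.2%, 94.2% and 68% in the washout. In Fc-JAG1 1, compE 2 and washout 2, all 7 tested factors reached 10 counts, and in the other 4 libraries 3 to 5 of them did. Total counts were 21652927 to 33974693 per library, the lowest in washout 1, and mitochondrial genes took 1.14% to 1.88% of counts in those 3 libraries and 2.48% to 12.7% in the other 4. The part of detection in the differences below was not tested. In bulk RNA of this kind, fewer transcribing cells and less RNA per cell cannot be told apart. The study itself describes these nascent RNA samples as noisy. Whether a count at or near 0 means that a gene was not transcribed was not tested.

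**Figure D1:**
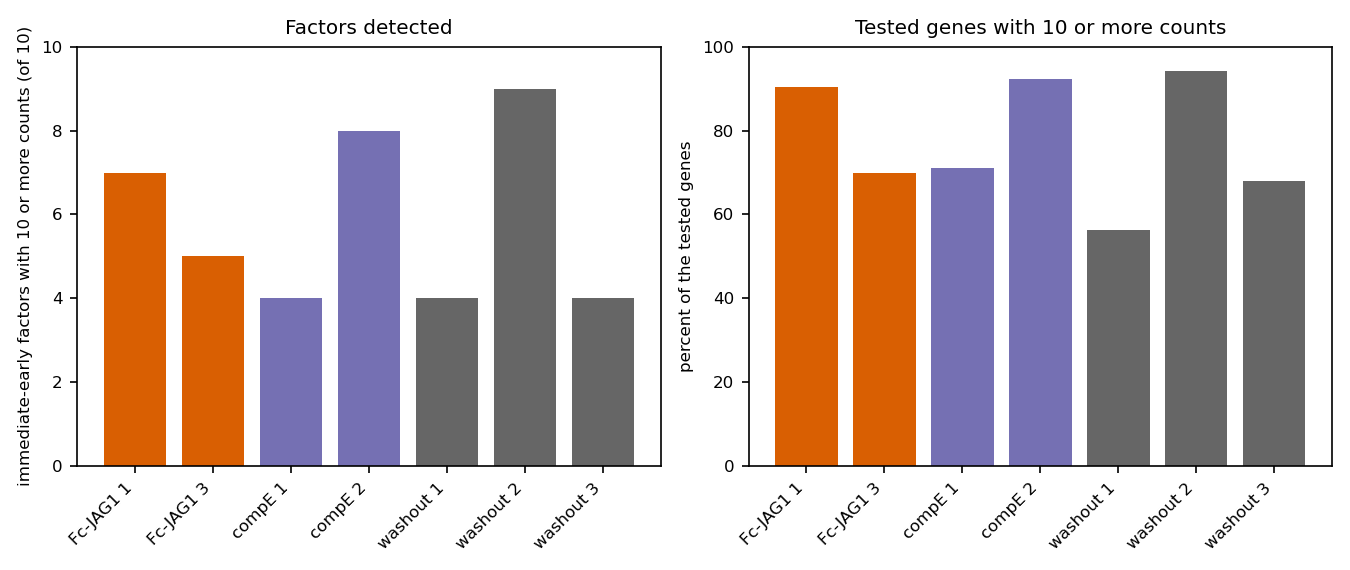
Left, the number of the 10 immediate-early factors with 10 or more counts in each library. Right, the percentage of the 10311 tested genes with 10 or more counts in the same libraries. Fc-JAG1 1, compE 2 and washout 2 stand highest in both panels, with 7, 8 and 9 factors.

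The sorted identity was present in part. Kit had 6381 or more counts in all 7 libraries and Runx1 16525 or more, while Gfi1, the reporter's own gene, had 2504 and 0 counts under Fc-JAG1, 0 and 0 under compE, and 0, 12 and 2477 in the washout. DESeq2 called Gfi1 lower under compE against the washout (-24.22, adjusted p = 3.33e-06). Pecam1, which encodes CD31, had 11 counts in Fc-JAG1 3 and 18 in washout 1, against 1186 or more in the other 5 libraries. Of 8 macrophage markers 5 reached 10 counts in some library, with summed levels of 470 and 136 CPM under Fc-JAG1, 103 and 338 CPM under compE, and 245, 354 and 328 CPM in the washout, while C1qb, C1qc and Mrc1 did not. Lyz2, the lysozyme of myeloid cells, had 13012 and 601 counts under Fc-JAG1, 0 and 5371 under compE, and 2609, 10317 and 2275 in the washout, and was called by DESeq2 lower under compE against the washout (-7.67, adjusted p = 0.0111) and higher under Fc-JAG1 against compE (7.95, adjusted p = 0.0261). Adgre1, another macrophage marker, had 42 and 3 counts under Fc-JAG1, 3 and 3361 under compE, and 3, 476 and 5 in the washout. Its highest library was thus compE 2. Cd68 and Csf1r, macrophage markers too, were called by DESeq2 in no comparison. Of 8 erythroid markers 7 reached 10 counts in some library, with summed levels of 100 and 92.4 CPM under Fc-JAG1, 25 and 142 CPM under compE, and 25, 432 and 44.1 CPM in the washout. Summed levels of 6 endothelial, 7 mesenchyme, 6 neural and 6 epithelial markers were 20.6 CPM or less in each library. Their part in the results below was not tested.

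Values are raw counts or CPM, counts relative to the library total, scaled by TMM, the trimmed mean of M values, which corrects for differences in composition. A count of 0 allows up to 3 counts, which equals 0.0774 to 0.174 CPM in these libraries. PCR copies were not counted apart, so this limit covers counting error only.

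**Figure D2:**
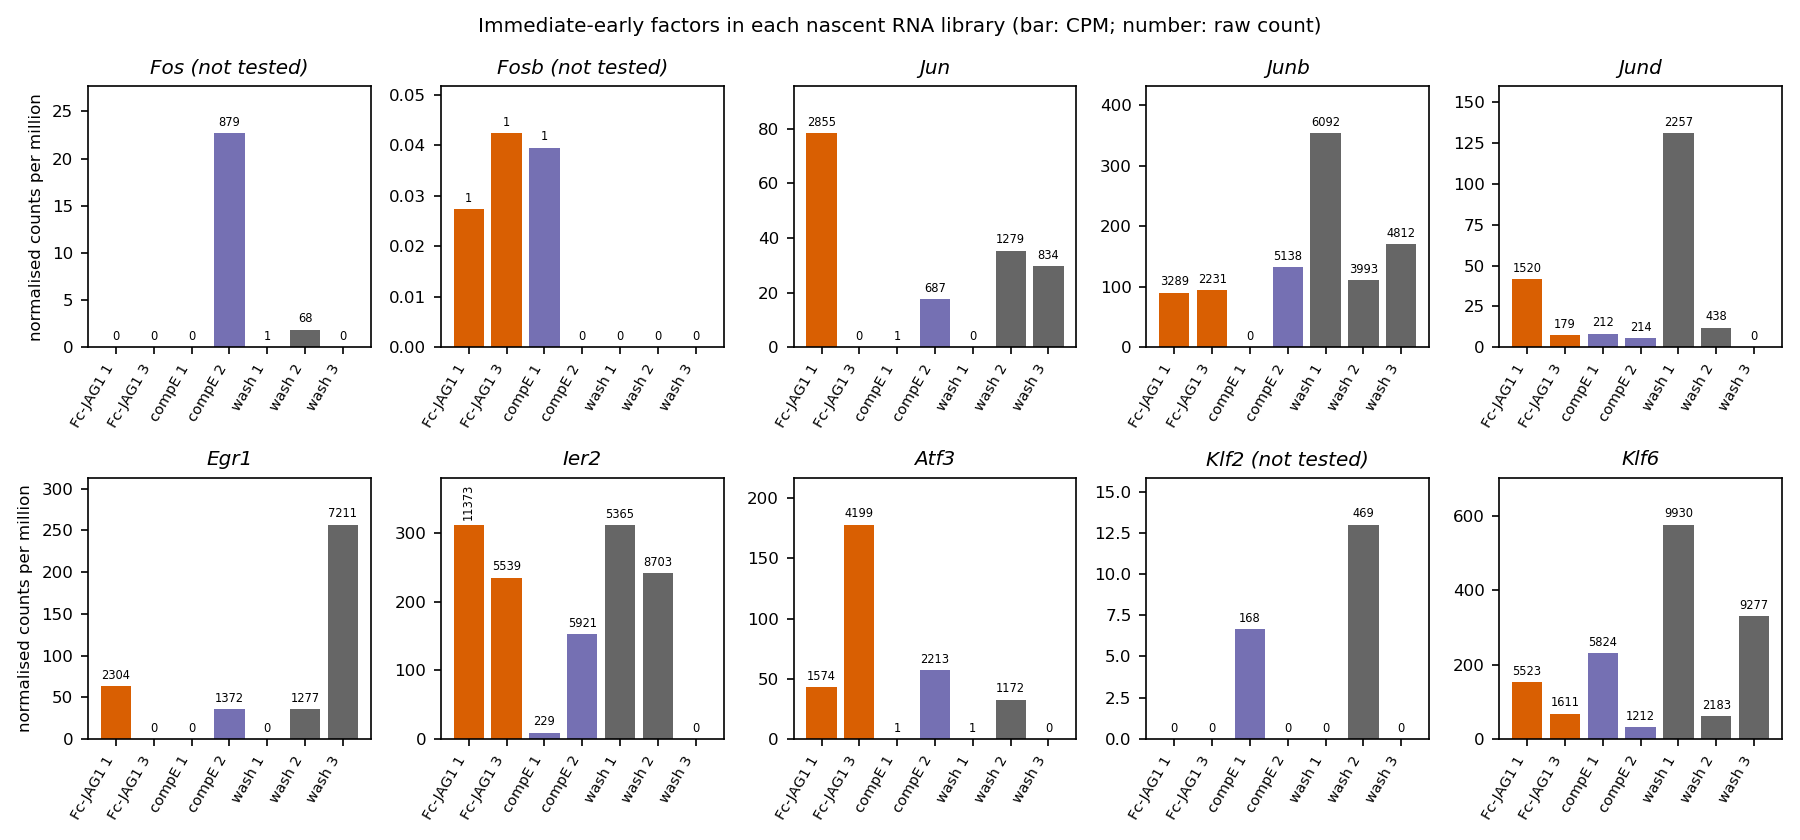
Each panel shows 1 factor. Bars give TMM-scaled CPM in the 7 libraries and the number above each bar is the raw count. Vertical scales differ between panels. Klf6 was present in all 7 libraries, Fosb never passed 1 count, and Jun and Egr1 were present in the same 4 libraries.

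Among the FOS subunits of AP-1, little nascent RNA was found. Fos (chr12:85473890-85477273, gene positions from GENCODE, GRCm38) had 0 and 0 counts under Fc-JAG1, 0 and 879 under compE, and 1, 68 and 0 in the washout, so that it was present in compE 2 and, at a lower level, washout 2. Fosb (chr7:19302696-19310051) had 1 and 1 counts under Fc-JAG1, 1 and 0 under compE, and 0 in all 3 washout libraries. Fosb was therefore at the detection limit throughout, and no fold was computed for either gene.

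The JUN subunits were more abundant, but each was missing from at least 1 library. Jun (chr4:95049034-95052222) had 78.4 and 0 CPM under Fc-JAG1, 0.0395 and 17.7 CPM under compE, and 0, 35.4 and 29.7 CPM in the washout. All 3 conditions therefore included a library at or near 0 and a library well above it, and the groups overlapped. Junb (chr8:84974484-84978718) had 90.3 and 94.5 CPM under Fc-JAG1, 0 and 133 CPM under compE, and 354, 111 and 171 CPM in the washout. The Fc-JAG1 libraries lay just below the lowest washout library for Junb, and compE 1 was the only library without it. Jund (chr8:70698949-70700616) had 41.7 and 7.58 CPM under Fc-JAG1, 8.38 and 5.52 CPM under compE, and 131, 12.1 and 0 CPM in the washout. Washout 1 was the highest library for both Junb and Jund, and Jund, which in many tissues is expressed without stimulus, was missing from washout 3 alone.

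Jun, Junb, Jund and Atf3 overlap a gene on the opposite strand, and whether reads were counted by strand is not given in the sources used here. Junb shares 351 bases with Prdx2, 173 of them exonic, and Prdx2 had 2031 and 0 counts under Fc-JAG1, 1358 and 3368 under compE, and 0, 4053 and 2132 in the washout. Junb had 2231 and 6092 counts in 2 libraries where Prdx2 was at 0, and 0 counts in compE 1, where Prdx2 had 1358. Jun shares 689 bases with Junos, which never passed 10 counts, and Jund shares 919 bases with Gm11175, which had 0 counts in every library. Atf3 shares 108 bases of an intron with Gm24748, which also had 0 counts.

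Egr1 (chr18:34859823-34864984) followed the libraries in the same way as Jun. It had 63.2 and 0 CPM under Fc-JAG1, 0 and 35.4 CPM under compE, and 0, 35.4 and 257 CPM in the washout, the last from 7211 counts. Egr1 and Jun were both present in Fc-JAG1 1, compE 2, washout 2 and washout 3 and both under 10 counts in the other 3 libraries, a pattern shared by 378 tested genes (3.67%). Over the 7 libraries the SD of its log2 CPM was 5.4, above that of 98.5% of the tested genes.

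Ier2 (chr8:84661331-84662852) had the highest level per length. It had 312 and 235 CPM under Fc-JAG1, 9.06 and 153 CPM under compE, and 311, 241 and 0 CPM in the washout. Both Fc-JAG1 libraries were above both compE libraries and close to the 2 washout libraries that held Ier2, while washout 3 held none. Ier2 and Jund were present in the same 6 libraries, as were 549 tested genes (5.32%).

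Atf3 (chr1:191170296-191218039) was the one factor higher in both Fc-JAG1 libraries than in every washout library. It had 43.2 and 178 CPM under Fc-JAG1, 0.0395 and 57.1 CPM under compE, and 0.0581, 32.5 and 0 CPM in the washout. The compE libraries overlapped both other groups, since compE 2 lay between the Fc-JAG1 libraries and compE 1 held 1 count. In the 3 libraries with most genes detected, 1 of each condition, Atf3 had 43.2 CPM in Fc-JAG1 1, 57.1 CPM in compE 2 and 32.5 CPM in washout 2. Fc-JAG1 3 had 178 CPM, and washout 1 and 3 together held 1 count. The part of detection in these differences was not tested. Being present in these 4 libraries and under 10 counts in the other 3 was shared by 374 tested genes (3.63%).

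The Krüppel-like factors took opposite places. Klf2 (chr8:72319033-72321656) had 0 and 0 counts under Fc-JAG1, 168 and 0 under compE, and 0, 469 and 0 in the washout. Klf6 (chr13:5861482-5870394) was the only factor present everywhere, with 152 and 68.2 CPM under Fc-JAG1, 230 and 31.3 CPM under compE, and 577, 60.5 and 331 CPM in the washout. Its log2 CPM had an SD of 1.5, below that of most tested genes (21.2% were lower), and reaching 10 counts in all 7 libraries was common (29.4% of tested genes). Klf6 was lowest in compE 2 and washout 2 and highest in washout 1 and 3, and the 3 conditions overlapped.

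The methods name the gene as the counted feature, which was read here as whole genes, introns included, although no source states this outright. Levels of different factors were therefore compared per kilobase of gene, and also per kilobase of exon. As means of the 7 libraries they ran from Ier2 (118 CPM per kb) through Junb (32.2), Klf6 (23.2), Jund (17.7), Egr1 (10.8), Jun (7.23), Klf2 (1.07), Fos (1.04) and Atf3 (0.93) to Fosb (0.00212). Neighbours in this order overlapped in their ranges, and Klf6 alone had a lowest library above 0, at 3.51 CPM per kb. Per kilobase of exon, Ier2 (118), Junb (59.2) and Klf6 (47.1) were again the highest, and Atf3, whose gene spans 47744 bases but has 2154 of exon, came next at 20.6 CPM per kb.

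The comparison of Fc-JAG1 with the washout asks what a Notch ligand does once inhibition is lifted. By edgeR's quasi-likelihood test with the embryo number as a block, no factor changed at an adjusted p of 0.05 (0 of 7, and 0% of the 10311 genes tested). At an unadjusted p under 0.05 there was 1 factor, Atf3, against 5.1% of all genes. Atf3 had a log2 fold change of 11.68 ± 5.17 (SE, adjusted p = 0.828, edgeR), with means of 111 ± 95.2 CPM under Fc-JAG1 (SD, n = 2) and 10.8 ± 18.7 CPM in the washout (SD, n = 3). Without the embryo block the edgeR estimate for Atf3 was 3.23 (unadjusted p = 0.142), for Ier2 0.57 and for Jun 0.83. Atf3 was higher in both Fc-JAG1 libraries than in the washout library of the same embryo number, by 8.42 and 11.35 on the log2 scale with a prior count of 2. Washout 2 was the only washout library with 10 or more counts of Atf3 (32.5 CPM). It has no Fc-JAG1 library of its number, so it enters the washout mean but neither of these pairs. Among the other 6 factors the log2 fold changes were 3.65 ± 2.95 for Ier2, 2.59 ± 4.81 for Egr1, 2.58 ± 4.14 for Jun, 0.44 ± 3.13 for Jund, -0.97 ± 2.08 for Junb and -2.04 ± 1.71 for Klf6 (SE), each interval including 0. For Egr1 and Jund the sign of this fit is not that of the measured levels, since Jund averaged 24.7 ± 24.1 CPM under Fc-JAG1 (SD, n = 2) and 47.7 ± 72.4 CPM in the washout (SD, n = 3) and Egr1, given below, was also lower on average under Fc-JAG1. The median of all genes was 0.44 in this comparison, and 0.07 with the size factors of DESeq2 or 0.71 with total counts alone.

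Within embryo numbers, Junb and Klf6 kept a negative direction and Atf3 the positive one above. The share of all genes that kept a direction in both pairs was not computed. Against washout 1 and washout 3, Junb differed by -1.97 and -0.86 on the log2 scale in Fc-JAG1 1 and 3, and Klf6 by -1.93 and -2.28. Jun went opposite ways, with differences of 10.17 and -8.77, as did Egr1 (9.86 and -11.88) and Jund (-1.65 and 6.81). Ier2 did not differ in the first pair (0) and differed by 11.75 in the second, where the washout library held none. Groups did not overlap for Atf3, which was higher (10.5% of all genes), and Junb, which was lower (6.85% of all genes). With the size factors of DESeq2 Junb overlapped.

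DESeq2 with the same terms, the tool the study used, called 4 of the 7 factors at an adjusted p of 0.05. Atf3 (log2 fold change 11.71, adjusted p = 9.72e-06), Ier2 (6.73, adjusted p = 0.0143) and Egr1 (10.81, adjusted p = 0.0228) were called higher, as were 15.7% of all genes, and Klf6 (-2.42, adjusted p = 0.0246) was called lower, as were 4.74%. Against the direction of the DESeq2 call, Egr1 levels averaged 31.6 ± 44.7 CPM under Fc-JAG1 (SD, n = 2) and 97.4 ± 139 CPM in the washout (SD, n = 3). DESeq2 without the embryo number gave Egr1 -1.93 (adjusted p = 0.963), Ier2 0.25 (adjusted p = 0.995) and Klf6 -2.02 (adjusted p = 0.604), so that these calls were lost, for Klf6 at a similar value. For Atf3 it gave 3.62 and no p-value, so that whether its call holds without the block was not tested by that tool.

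**Figure D3:**
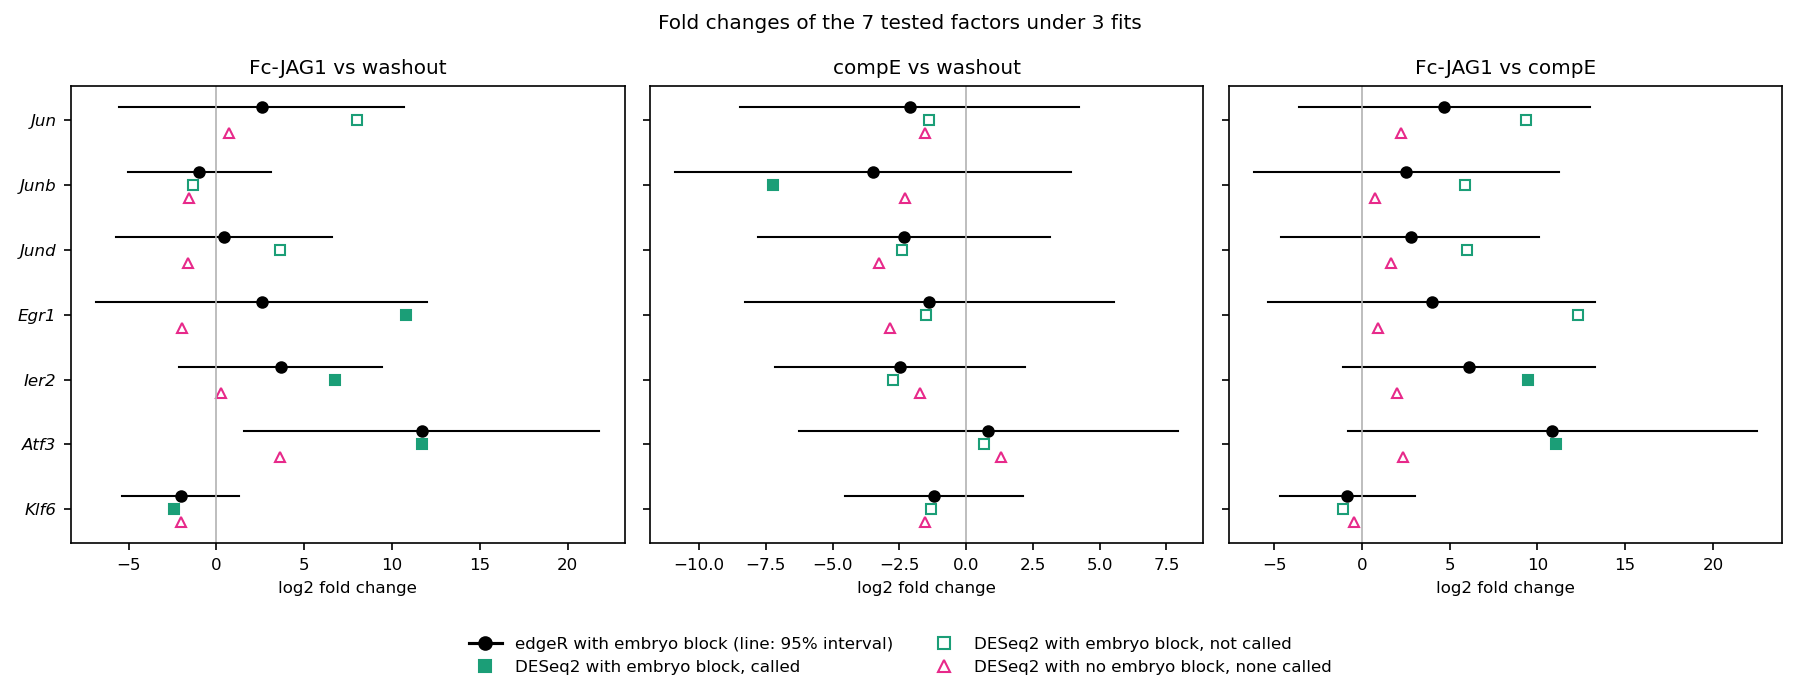
Log2 fold changes of the 7 tested factors in the 3 comparisons (panels). Black circles with lines are edgeR estimates with the embryo block and 95% intervals, squares are DESeq2 with the same block (filled where called), and open triangles are DESeq2 without the block. Atf3 against the washout is the one edgeR interval that leaves out 0, and Egr1 and Jund change side between the fits in the left panel.

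The comparison of renewed compE with the washout asks what keeping γ-secretase inhibited does. Again no factor passed the edgeR test (0 of 7, and 0% of all genes), and none had an unadjusted p under 0.05, against 2.63% of all genes. Log2 fold changes were negative for 6 of 7 factors, with values of -3.49 ± 3.78 for Junb, -2.46 ± 2.39 for Ier2, -2.33 ± 2.79 for Jund, -2.12 ± 3.23 for Jun, -1.38 ± 3.52 for Egr1 and -1.20 ± 1.70 for Klf6, and 0.84 ± 3.63 for Atf3 (SE). All these intervals included 0, and 47.7% of all genes were above 0. Jund, Ier2 and Klf6 were lower in both compE libraries than in the washout library of the same number, with differences of -3.96 and -1.13 for Jund, -5.09 and -0.66 for Ier2, and -1.32 and -0.95 for Klf6 on the log2 scale. Egr1 did not differ in either pair (0 and 0). Jun (0.66 and -1), Junb (-12.34 and 0.26) and Atf3 (-0.23 and 0.81) went opposite ways between the pairs. The share of all genes lower in both pairs was not computed. No factor's groups were apart in either direction, against 10.9% of all genes higher and 6.79% lower.

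Junb was the single factor called by DESeq2 under compE (log2 fold change -7.22, adjusted p = 0.0203). It was called lower, as were 3.67% of all genes, and no factor was called higher, against 5.66%. In the first pair, compE 1 held 0 counts of Junb against 6092 in washout 1. In the second pair, compE 2 held 133 CPM and washout 2 held 111 CPM. Without compE 1 the log2 fold change was 0.21, and the call was kept in 2 of the 7 fits that left out 1 library, being lost also without either Fc-JAG1 library, washout 1 or washout 3. With no embryo block it was -2.30 (adjusted p = 0.785, DESeq2).

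Fc-JAG1 was also set against compE, which share embryo number 1 only. By edgeR 0 of 7 factors changed (0% of all genes), none at an unadjusted p under 0.05 (2.83% of all genes). The largest estimates were 10.85 ± 5.93 for Atf3 and 6.11 ± 3.67 for Ier2 (SE), both with an adjusted p of 1 by edgeR. Ier2 had 312 and 235 CPM under Fc-JAG1 (mean 273), and 9.06 and 153 CPM under compE (mean 80.9). It was the one factor whose groups were apart, higher under Fc-JAG1, as were 15% of all genes, and none was lower, against 15.4%. By DESeq2, Atf3 (11.05, adjusted p = 6e-04) and Ier2 (9.48, adjusted p = 0.00554) were called higher, as were 9.18% of all genes, and no factor lower (2.21%). Without the embryo block, DESeq2 called no factor here and gave 1.97 for Ier2 (adjusted p = 1) and 2.31 for Atf3, with no p-value. Since this comparison shares its Fc-JAG1 libraries with the one against the washout, the 2 calls for Atf3 are not independent.

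Each DESeq2 call was repeated with every library left out in turn, which leaves 1 library in some conditions, assumed to vary like the others. Against the washout, Atf3 stayed positive, between 9.24 and 14.7, in all 7 fits. Without either Fc-JAG1 library no condition compared held 10 counts in 2 libraries, as a call requires. Leaving out compE 2 or washout 2 leaves 1 library of that embryo number, and these fits coincided for Atf3 (11.74 in both). Those without Fc-JAG1 3 or washout 3 nearly did (9.3 and 9.24). The 7 fits are therefore not 7 separate checks. Ier2 against the washout was called in 2 of 7 fits and was 0.04 without Fc-JAG1 3 and -0.03 without washout 3. Egr1 turned to the other side in 4 of 7 fits and reached -15.04 without Fc-JAG1 1 (adjusted p = 0.00337, DESeq2). Klf6 stayed between -2.55 and -2.12 but was called in none of the 7 fits. Against compE, Atf3 kept its call in 4 of 7 fits and Ier2 in 4 of 7, Ier2 at 3.13 without Fc-JAG1 3 and 3.07 without washout 3.

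**Figure D4:**
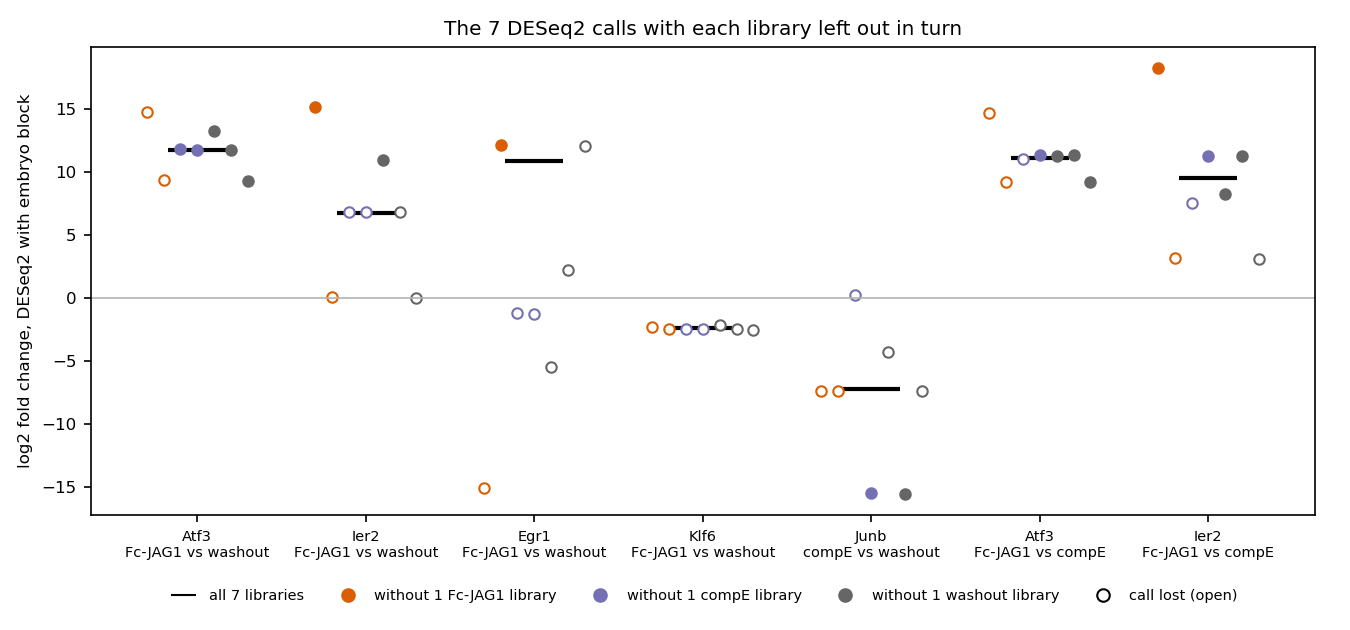
The 7 DESeq2 calls among the factors (black lines, all 7 libraries) and the same log2 fold change after leaving out each library in turn (circles, coloured by the condition of the library left out, open where the call was lost). Atf3 stays between 9.15 and 14.7, Klf6 keeps its value while losing its call, and Egr1 spans both sides of 0.

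Genes that work with these factors were read from lists written with earlier results of these data known. By edgeR no gene of any list changed, so counts below are DESeq2 calls. Genes given with values are the 3 of each list with the smallest edgeR p, and Klf7, Per1 and the genes named only as called were chosen after their values were seen. Of 18 AP-1 partners and antagonists 9 were tested and 0 were called in any comparison by DESeq2, or had an unadjusted edgeR p under 0.05. Mafk, a small MAF protein that binds DNA with partners, had 162 and 395 CPM under Fc-JAG1, 53.1 and 172 CPM under compE, and 0.0581, 52.3 and 210 CPM in the washout. Mafg, its close relative, had 200 and 574 CPM under Fc-JAG1, 111 and 159 CPM under compE, and 935, 284 and 180 CPM in the washout, and Batf2 never passed 51 counts.

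Of 6 EGR and NAB genes 3 were tested. Egr3, a relative of EGR1, had 0 and 84.1 CPM under Fc-JAG1, 172 and 27.4 CPM under compE, and 0.29, 0.0277 and 0 CPM in the washout. Egr3 was thus high in both compE libraries, while Egr1 was at 0 in compE 1. DESeq2 called Egr3 higher under compE against the washout (9.89, adjusted p = 0.0252), as were 5.66% of all genes. The edgeR estimate for Egr3 was 18.06 ± 6.48 (SE, unadjusted p = 0.0112, adjusted p = 1). Nab2, a corepressor of EGR1 that EGR1 itself induces, had 17.7 and 2.12 CPM under Fc-JAG1, 0.119 and 19.9 CPM under compE, and 0, 37.4 and 0 CPM in the washout. DESeq2 called Nab2 higher under Fc-JAG1 against the washout (8.25, adjusted p = 0.00167), as were 15.7% of all genes. Against compE it was also called higher by DESeq2 (7.61, adjusted p = 0.0159), as were 9.18% of all genes. These calls run against the measured levels of Nab2, which was highest in washout 2 and next in compE 2 and whose mean was not higher under Fc-JAG1 than in either other condition. Nab1 was not called.

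Among 14 other KLF genes 7 were tested. Klf10, induced by TGF-beta, had 29 and 5 CPM under Fc-JAG1, 0 and 13.5 CPM under compE, and 0, 41 and 0.0356 CPM in the washout. Klf16 had 29.4 and 3.09 CPM under Fc-JAG1, 0 and 7.79 CPM under compE, and 0, 28.2 and 0.0356 CPM in the washout. Both were called higher by DESeq2 under Fc-JAG1 against the washout (8.94 and 8.65), as were 15.7% of all genes. Against compE both were also called higher (10.82 and 10.78), as were 9.18% of all genes. Klf10 and Klf16 were highest or nearly so in washout 2, so the groups overlapped. Klf8 had 0.137 and 0.339 CPM under Fc-JAG1, 13.2 and 23.3 CPM under compE, and 0.871, 0.139 and 0.0713 CPM in the washout. Both compE libraries were above the other 5 for Klf8. Of all genes, 10.9% were higher without overlap under compE against the washout, and 15.4% lower under Fc-JAG1 against compE. DESeq2 called Klf8 higher under compE against the washout (5.70, adjusted p = 0.0161), as were 5.66% of all genes. Under Fc-JAG1 against compE it was called lower (-6.20, adjusted p = 0.0265), as were 2.21%. Klf7 was the one gene of this list called lower under Fc-JAG1 against the washout (-6.24, adjusted p = 0.0133, DESeq2), as were 4.74% of all genes.

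Of 43 further immediate-early genes 27 were tested, with a median edgeR log2 fold change of 0.06 under Fc-JAG1 against the washout, where the median of all genes was 0.44. DESeq2 called 6 of the 27 higher (Nr4a2, Gadd45a, Mcl1, Per1, Nfil3 and Plk3), where 15.7% of all genes were, and 1 lower (Ppp1r15a), where 4.74% were. Per1, a clock gene, had 118 and 16.4 CPM under Fc-JAG1, 0.0395 and 54.9 CPM under compE, and 0, 50.6 and 210 CPM in the washout, so that its highest library was washout 3 and the call against the washout runs against its mean levels. Under compE against the washout it called 1 of the 27 higher (Dusp1, against 5.66% of all genes) and 1 lower (Ier3, against 3.67%), and under Fc-JAG1 against compE 3 higher (Per1, Nfil3 and Plk3, against 9.18%). Plk3, a stress-responsive kinase, had 46.7 and 449 CPM under Fc-JAG1, 0 and 47.6 CPM under compE, and 0, 36 and 0 CPM in the washout, with the same libraries present as for Atf3. Errfi1, a feedback inhibitor of the EGF receptor, had 88 and 172 CPM under Fc-JAG1, 0 and 23.3 CPM under compE, and 0.232, 0 and 4.77 CPM in the washout, and passed no adjusted test. Nr4a2, an orphan nuclear receptor, had 0.329 and 4.45 CPM under Fc-JAG1, 0.158 and 13.3 CPM under compE, and 0, 0 and 0.0356 CPM in the washout.

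Upstream, 29 of 33 genes of the MAP kinase cascade and of the SRF, ETS and CREB activators were tested. Against the washout, DESeq2 called 6 of the 29 higher under Fc-JAG1, among them Araf, Elk1, Elk4, Creb1 and Crem (15.7% of all genes), and 1 lower, Mef2d (4.74% of all genes). Against compE it called 4 higher (Elk1, Elk4, Creb1 and Crem, against 9.18% of all genes) and 1 lower (Map2k6, against 2.21%). Under compE against the washout it called 2 higher (Araf and Map2k6, against 5.66%) and 2 lower (Map2k4 and Mef2d, against 3.67%). Creb1, which binds CRE letters, had 83.7 and 208 CPM under Fc-JAG1, 0.158 and 63.5 CPM under compE, and 0.116, 62.5 and 0 CPM in the washout. Crem, its close relative, had 65.9 and 86.2 CPM under Fc-JAG1, 0.158 and 62 CPM under compE, and 0.29, 26.2 and 0.0713 CPM in the washout. These genes were present in the same 4 libraries as Atf3. Mef2d, a MADS-box factor of the MEF2 family, had 91.4 and 4.57 CPM under Fc-JAG1, 34.3 and 83.7 CPM under compE, and 1220, 155 and 616 CPM in the washout, so that all 4 treated libraries were below all 3 washout libraries. Of all genes, 6.85% were lower than the washout without overlap under Fc-JAG1 and 6.79% under compE. The edgeR estimate for Mef2d under Fc-JAG1 against the washout was -4.40 ± 1.69 (SE, unadjusted p = 0.016, adjusted p = 0.828).

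Profiles most like those of the factors came from genes outside the lists. Likeness was the root mean square difference of log2 CPM, each gene centred on its own mean, over the 7 libraries. The nearest genes were Ripk1, Nelfcd and Fam208a for Atf3 (differences of 0.293 to 0.343), Glmp, Tmub2 and Usb1 for Egr1 (0.274 to 0.347), Txnl4a, Ptgs2 and Abhd5 for Jun (0.468 to 0.54), and Timm13, Mphosph8 and Kars for Junb (0.411 to 0.456). For Ier2 they were Xpo4, Ttk and Sp1 (0.68 to 0.811), for Jund Man2c1, Haus4 and Rab31 (0.786 to 0.971), and for Klf6 Ccz1, Armc4 and Parvg (0.432 to 0.471). The nearest pair among the factors was Jun with Egr1, at 1.18, and 132 genes were closer to Jun than Egr1 was. Next came Jund with Ier2, at 2, and 319 genes were closer to Jund than Ier2 was.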

How the data were processed

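Per the labels and the methods, 50 bp single-end reads were trimmed with cutadapt 4.2, aligned to mm10 with STAR 2.7.8 and uniquely mapped reads were counted with featureCounts (Subread 2.0.1), with the gene as the feature. The authors deposited the raw counts of 7 libraries, a filtered subset of those counts (10 counts or more in 2 or more libraries of a single condition, a rule that gave the same genes from the raw table) and a transformed table that was not used here. Whether strand was used in counting is not given in the sources used here. The 10 factors, companion lists and marker lists were chosen with earlier results of these data known.

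Counts of the 10311 filtered genes were scaled by TMM and fitted with edgeR 4.0.16 (quasi-likelihood F test, condition and embryo number as terms, all 7 libraries in one fit, R 4.3.3). P-values were two-sided and adjusted by Benjamini-Hochberg over all 10311 genes, with a threshold of 0.05, and a call also needed 10 counts in 2 replicates of either condition compared. SEs and 95% intervals were derived from the F statistic. DESeq2 1.42.0, which the authors used in version 1.38.3, was run with the same terms as an alternative. Samples were paired by the embryo number in their titles. Deviations from condition means were nearly uncorrelated in the 5 same-numbered pairs (Pearson's r across genes from -0.0854 to 0.0915). Values in the other pairs ran from -0.0964 to 0.0964. They are no independent comparison, since 2 libraries of a condition deviate from their mean as mirror images.

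Other alternatives were DESeq2 size factors, total counts alone, no filter on low counts (all genes with a count), no embryo block, and leaving out each library in turn with the 10311 genes kept. DESeq2 without each library, and groups not overlapping under other scalings, were added after seeing the data. All 10 factors were named, with the 3 genes of each companion list that had the smallest edgeR p over the 3 comparisons, and the 3 genes nearest in profile to each factor. Other genes named were cell type markers and those DESeq2 called, chosen after their values were seen. Motifs listed first were the CArG box, TGACGTCA, TGAGTCA or TGACTCA, and TATAAA. The result of 1 gene of the companion lists is not reported here.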

Additional observations from a re-analysis of the deposited data

How the results depend on the processing

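With edgeR, no gene and no factor was called in any comparison under TMM, DESeq2 size factors, total counts, no filter on low counts or without any 1 library (0 in each fit), except that 1 gene was called for Fc-JAG1 against the washout with no replicate block. DESeq2 with the replicate block called 2108, 962 and 1175 genes for Fc-JAG1 against the washout, compE against the washout and Fc-JAG1 against compE, and 4, 1 and 2 factors. Without the replicate block it called 388, 325 and 190 genes and 0 factors in each. That fit gave 0.25 for Ier2, 3.62 for Atf3 (adjusted p not computed by DESeq2) and -2.02 for Klf6 against the washout, and turned Egr1 to -1.93 and Jund to -1.59. In edgeR with no replicate block they were -1.60 and -0.88. Groups not overlapping between Fc-JAG1 and the washout numbered 2 factors with TMM, 1 higher (10.5% of all genes) and 1 lower (6.85%). With DESeq2 size factors they numbered 1, for which no share of all genes is given.

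Leaving out each library in turn changed the number of factors called by DESeq2 in each comparison. No share of all genes is given for these fits, so those numbers are not set out. By DESeq2, Egr1 ranged between -15.04 and 12.1, Ier2 between -0.03 and 15.1 (Fc-JAG1 against the washout), and Junb between -15.53 and 0.21 (compE against the washout). By edgeR, for Fc-JAG1 against the washout, Jun ranged between -12.71 and 10.97, Junb between -1.42 and 1.51, Jund between -1.16 and 10.74, and Egr1 between -15.82 and 13.9. For compE against the washout, Junb ranged between -16.04 and 0.24 and Ier2 between -4.21 and 0.50. For Fc-JAG1 against compE, Jun ranged between -11.74 and 11.94, Junb between -1.61 and 14.62, and Egr1 between -15.82 and 13.9. Atf3 and Klf6 kept their sign in each comparison in all fits run. The cause was not tested. The common dispersion over all tested genes was 2.42 with 2 or 3 libraries a condition, and a count of 0 in a library allows up to 3 counts.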
